A study of Mus musculus with 8 samples.

Results

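Gpr30, Esr1, Esr2, Pgr, Nr3c1 and Foxa1 are the genes for the estrogen receptors, the progesterone and glucocorticoid receptors, and a transcription factor that works with the estrogen receptor. They were taken by gene name from the non-control probes of the arrays, which gave 6 of 30222 gene names and 12 of 39429 probes. Gpr30 is the array's older name for Gper1. The genes were chosen with their difference between the 2 groups already known, so that difference is given here as a description, with its size and spread and no p-value. Each probe was read on its own: Gpr30, Esr2 and Foxa1 had 1 probe each, Nr3c1 had 2, Pgr 3 and Esr1 4.

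By their labels all 8 samples were NMuMG-NT2197 cells, a derivative of the mouse mammary epithelial line NMuMG, that had received the pMSCV/hygro expression vector. In 4 samples the vector carried a ShcA cDNA with arginine 175 changed to glutamine (R175Q), a residue of the phosphotyrosine-binding (PTB) domain of this adaptor protein. The 4 control samples carried the wild-type ShcA cDNA by their treatment label, while their titles read nT. By that label both groups expressed an added ShcA and no sample without it was used. Whether the samples came from separate transfections, clones or cultures is not stated, and the p-values below measure only the spread between these samples. The starting RNA, 1 to 2.5 ng a sample, was amplified linearly in 2 rounds, and 5 µg of the product was labelled with Cy3 and hybridised against a Cy5-labelled common reference, with the dyes never swapped. The labels call the reference mouse in one field and human in another. They also speak of microdissected material although they name a cell line. Neither point could be settled here. In bulk RNA of this kind, fewer cells of a type and less RNA per cell cannot be told apart.

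Estrogen acts through nuclear receptors, encoded by Esr1 and Esr2, which bind DNA and recruit coregulators once the hormone has bound them, and through the G protein-coupled membrane receptor encoded by Gper1. In the mammary gland Esr1 and its target Pgr, the nuclear progesterone receptor, mark the hormone-sensing luminal cells, and Foxa1 is the pioneer factor that opens chromatin for the estrogen receptor there. Nr3c1 encodes the glucocorticoid receptor, which is held by heat shock protein chaperones until its ligand arrives and takes part in milk gene expression.

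The sequences of 2 probes are printed because they show what the nuclear receptor readings rest on: the Esr1 probe that gave a signal on every array, and a Pgr probe that gave none above background. Each is a 60-base probe in the sense orientation, written 5′ to 3′ as the files give it, with no base singled out.
Esr1 A_55_P2030883: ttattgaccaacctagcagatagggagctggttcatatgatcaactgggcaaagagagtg
Pgr A_51_P213476: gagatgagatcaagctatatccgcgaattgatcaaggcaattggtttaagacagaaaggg
The Esr1 probe is placed by the files at chr10:5489352-5489411 on the minus strand of mm9, and the Pgr probe at chr9:8961434-8961493 on the plus strand. Reading from the first base, neither holds a stop codon. Both come from the coding part for the ligand-binding domain of their receptor, whereas exon and UTR positions of the other probes were not determined here.

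The values below are log2 ratios of sample over reference, so a ratio of 0 is equal signal in both and a difference of 1 between groups is a doubling. Across the arrays, 53.7% to 63.0% of probes were well above background in the sample channel and no probe spot was saturated in that channel. Saturation in the reference channel was not examined. Negative control spots had an SD of 3.86 to 11.7 intensity units on 7 arrays and of 40.8 on wild-type replicate 3, where 1 spot read 514 units. R175Q replicates 1 and 2 differed from each other by a median absolute deviation of 0.082 on the log2 scale over 22849 probes, and wild-type replicates 1 and 4 by 0.088, against 0.144 to 0.252 for the other pairs of one group. Spots of the same probe on one array differed by 0.034 to 0.053, less than these closest arrays did. Whether the close arrays share an RNA is not stated. Each result was therefore also computed with each close pair averaged to 1 sample, 3 against 3. Shc1, the gene of ShcA, read 1.00 in R175Q and 1.12 in wild-type cells (difference -0.12 ± 0.10 SE, adjusted p = 0.497 by limma), and as both groups carry a ShcA cDNA this checks no label.

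Gpr30 was 2.73-fold higher in R175Q cells than in wild-type cells. Its probe, A_51_P185939, lies at chr5:139903348-139903407 on the plus strand (mm9) and was above background on all 8 arrays. The log2 ratio was 2.21, 2.24, 1.82 and 1.92 in R175Q replicates 1 to 4. In wild-type replicates 1 to 4 it was 0.58, 0.62, 0.63 and 0.56. Every R175Q array was above every wild-type array, and the R175Q arrays were spread more widely, with means of 2.05 ± 0.21 and 0.60 ± 0.034 (SD, n = 4 each). The difference was 1.45 ± 0.10 (SE). In intensity units above local background, the sample channel read 1861, 1825, 1204 and 1385 in R175Q cells and 365, 389, 390 and 366 in wild-type cells. Within the 3 slides that held both groups the difference was 1.66, 1.20 and 1.36. It was 1.38 ± 0.11 with the close arrays averaged.

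**Figure D1:**
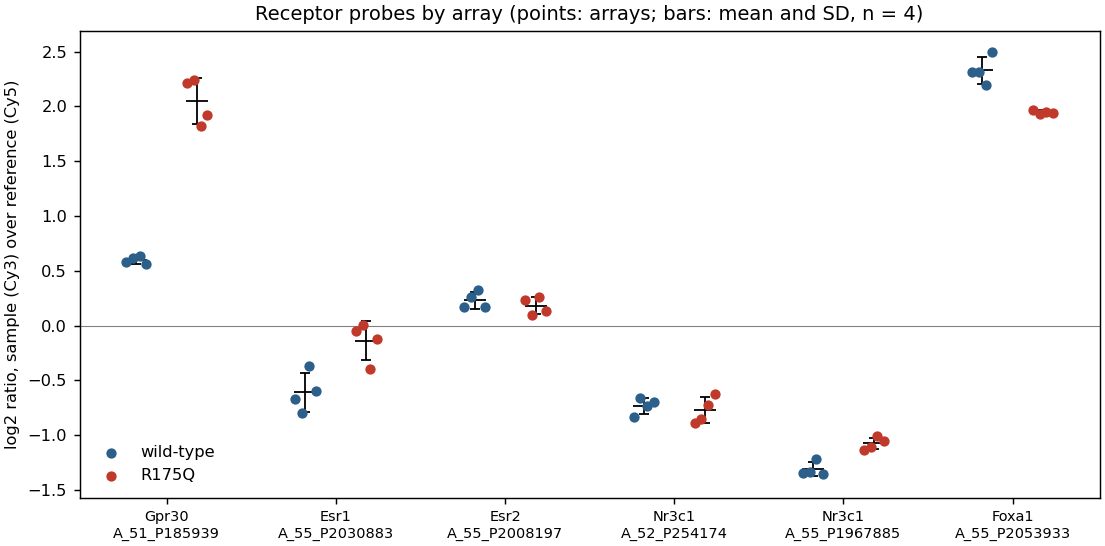
Log2 ratio of sample over reference (vertical axis) for the 6 receptor and Foxa1 probes measured on all arrays, with 1 point per array, wild-type in blue and R175Q in red, and bars for the mean and SD of 4 arrays. Gpr30 lies at 1.82 to 2.24 in R175Q cells and 0.56 to 0.63 in wild-type cells, Foxa1 is lower in every R175Q array, and the Esr1 groups touch at -0.39 and -0.37.

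The reference channel at the Gpr30 spot also differed between the groups, although the same reference went on every array. Its normalised Cy5 intensity was 8.93 ± 0.13 on the log2 scale on R175Q arrays and 8.59 ± 0.083 on wild-type arrays (SD, n = 4 each), with no overlap. Before normalisation it read 574 to 639 units on R175Q arrays and 491 to 503 on wild-type arrays. A gap of 0.34 in the same direction in the reference makes the ratio smaller than the sample channel alone, in which the Gpr30 difference was 1.79. Over the 122 probes whose ratio was at least 1 higher in R175Q cells, the median Cy5 difference was 0.043, and over all 22849 probes it was 0.0084. The Cy5 differences of the other measured probes of these genes ran from -0.026 to 0.081, each with overlapping groups. The part of the reference channel in the Gpr30 difference was not tested further.

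**Figure D2:**
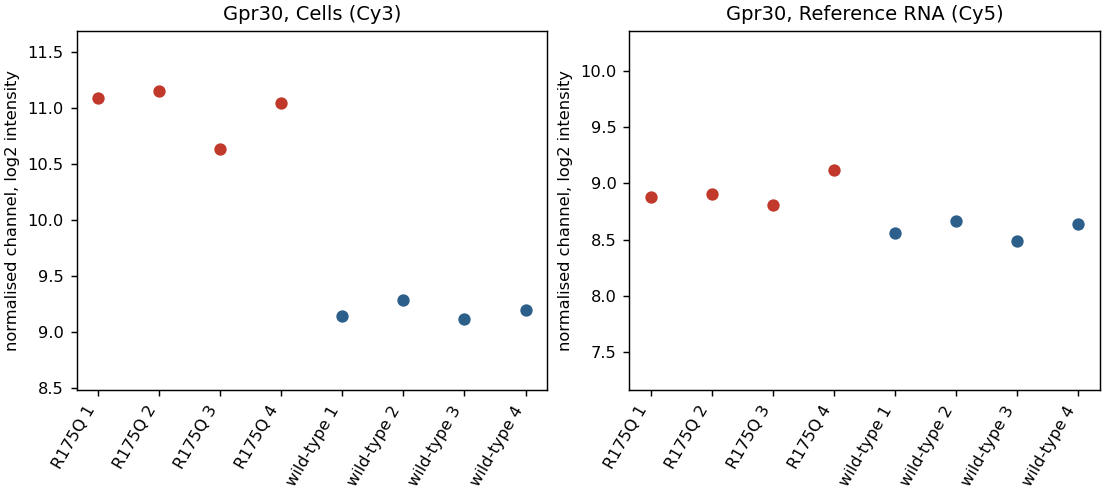
Normalised log2 intensity of the Gpr30 spot on each array (vertical axes, spanning equal ranges), with the Cy3 channel of the cells on the left and the Cy5 channel of the common reference on the right, R175Q in red and wild-type in blue. The groups are apart in both channels, by 1.79 in the cells and by 0.34 in the reference.

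Of the 3 nearest measured genes on either side of Gper1, named through RefSeq's gene order, 3 of 6 rose in R175Q cells and the other 3 did not pass; over all 22849 probes 17.7% passed, 1828 of them higher and 2222 (9.72%) lower. C130050O18Rik, the neighbour on one side, rose by 0.79 ± 0.067 (SE, adjusted p = 4.08e-05 by limma over 22849 probes), from between -1.95 and -1.74 in wild-type cells to between -1.16 and -0.99. Gpr146, another G protein-coupled receptor gene and the next one along, rose by 1.23 ± 0.12 (adjusted p = 7.55e-05 by limma). Its ratio was 0.68, 0.67, 0.77 and 0.81 in R175Q cells and -0.54, -0.82, -0.18 and -0.46 in wild-type cells. Zfand2a, a stress-inducible zinc finger gene and the neighbour on the other side, rose by 0.77 ± 0.15 (adjusted p = 0.0056 by limma). None of these 3 overlapped between the groups, as was the case for 23.0% of all probes. The other 3 of the 6 genes lay slightly below 0: 3110082I17Rik differed by -0.07 ± 0.06, Micall2 by -0.08 ± 0.06 and Ints1 by -0.11 ± 0.06. Genes were ordered by their start, and 3110082I17Rik overlaps Gper1 on the chromosome, so it is not an outer gene. When normexp was fitted to all spots in place of the negative controls, C130050O18Rik no longer passed (0.076 ± 0.20, adjusted p = 0.859 by limma), while Gpr146 and Zfand2a still did. Zfand2a did not pass with the arrays scaled to each other (0.58 ± 0.31, adjusted p = 0.296 by limma). The neighbours were chosen after the Gpr30 values were seen.

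**Figure D3:**
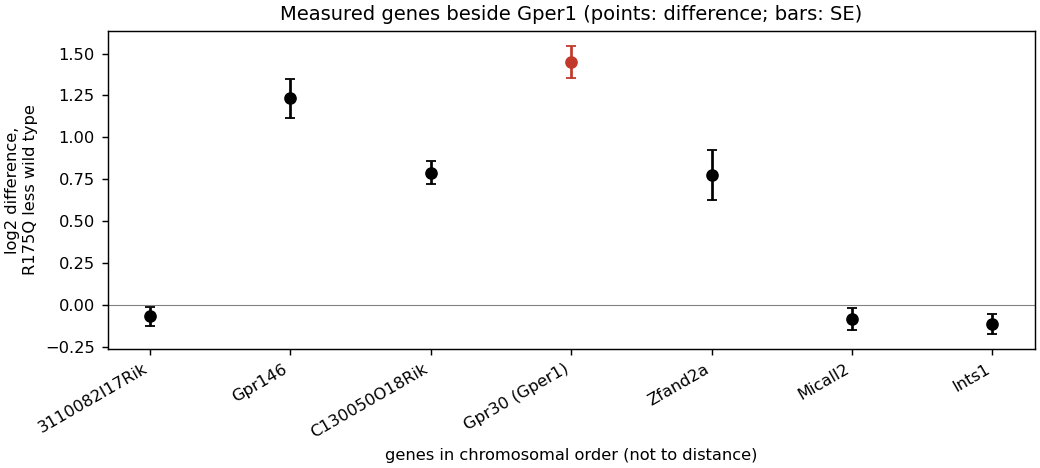
Difference between R175Q and wild-type cells in log2 ratio (vertical axis; points with SE bars) for Gpr30 and the nearest measured genes on either side, in chromosomal order and not to distance. Gpr146, C130050O18Rik and Zfand2a are above 0 with Gpr30. The other genes, of which 3110082I17Rik overlaps Gper1 on the chromosome, lie between -0.11 and -0.07.

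Esr1, the main nuclear estrogen receptor of the mammary gland, was 1.39-fold higher in R175Q cells by the only 1 of its 4 probes measured on all arrays. A_55_P2030883 read -0.046, 0.0086, -0.39 and -0.12 in R175Q replicates 1 to 4. In wild-type replicates 1 to 4 it read -0.67, -0.80, -0.37 and -0.60. The groups overlap by a single pair of arrays, R175Q replicate 3 and wild-type replicate 3, the array with the broad negative controls. The difference was 0.47 ± 0.11 (SE), and 0.68, 0.19 and 0.48 within the 3 slides. With the median and median absolute deviation of the negative controls as background, wild-type replicate 3 read -0.56, the groups no longer overlapped and the difference was 0.51 ± 0.09. That setting was not among those planned.

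The size of the Esr1 difference moved with the background more than that of any other probe of these genes. With normexp fitted to all spots it was 0.085 ± 0.092, and with the scanner's own processed ratio, which adds no offset to dim spots, it was 1.11 ± 0.16. The slide as a block gave 0.42 ± 0.13, the scan day as a block 0.43 ± 0.13, and the close arrays averaged 0.42 ± 0.13.

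A second Esr1 probe, A_52_P237077 at chr10:5343056-5343115 on the minus strand, was printed as 10 spots on each array. It was above background on 2 of 4 R175Q arrays and on no wild-type array, and so fell short of the minimum of 4 arrays. Its mean over spots was -1.88, -1.92, -1.99 and -1.83 in R175Q cells and -2.11, -2.09, -1.90 and -2.14 in wild-type cells. Wild-type replicate 3 alone reached into the R175Q range, and the SD between the 10 spots of one array was 0.0995 to 0.154. With the median and median absolute deviation of the negative controls as background, the unplanned setting, wild-type replicate 3 read -2.40 and the groups did not overlap. That array thus went from the highest to the lowest of the wild-type group with the background. On it 0 of the 10 spots were above background, so nothing is read from this separation. The other Esr1 probes, A_51_P474658 and A_66_P138072, were not well above background in the sample channel of any array. Their ratios were lower in R175Q cells, by -0.082 and -0.034, with overlapping groups. Only 1 probe therefore carries a measured level for the gene.

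Esr2, the second nuclear estrogen receptor, showed no separation between the groups. Its probe A_55_P2008197 (chr12:77221426-77221485, minus strand) read 0.23, 0.10, 0.26 and 0.13 in R175Q cells and 0.17, 0.26, 0.33 and 0.17 in wild-type cells, and was above background on all 8 arrays. The difference was -0.05 ± 0.06 (SE). It turned to 0.08 when the arrays were centred on their median in place of the loess fit, still within about 1 SE of 0 in size.

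Pgr, the nuclear progesterone receptor, had no measured level in either group. None of its 3 probes was above background on an R175Q array, including the coding-region probe printed above. Only A_55_P2095663, on wild-type replicate 4, was above background at all. Sample intensities ran from 11.6 to 32.8 units, beside array medians of 13.1 to 22.7 units for the negative control spots, and the ratios from -0.23 to 0.16. A difference in Pgr was therefore not detectable on these arrays, which does not show that the transcript is absent.

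Nr3c1, the glucocorticoid receptor, gave different answers from its 2 probes. A_55_P1967885 (chr18:39571641-39571700) read -1.13, -1.11, -1.01 and -1.05 in R175Q cells and -1.35, -1.34, -1.22 and -1.35 in wild-type cells. By this probe every R175Q array was above every wild-type array, with a difference of 0.24 ± 0.06 (SE), or 1.18-fold, and 0.24, 0.27 and 0.30 within the 3 slides. By A_52_P254174 (chr18:39574183-39574242) the gene read -0.89, -0.85, -0.72 and -0.63 in R175Q cells and -0.84, -0.66, -0.73 and -0.70 in wild-type cells. Those ranges overlap, the R175Q arrays reaching further at both ends, and the difference was -0.04 ± 0.07, or 0.10 ± 0.088 with median centring. The higher reading of the first probe was 0.20 ± 0.048 with normexp fitted to all spots, 0.18 ± 0.089 with the Cy3 channel alone and 0.24 ± 0.079 with the close arrays averaged. Which transcripts each probe detects was not determined here.

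Foxa1, the pioneer factor that opens estrogen receptor binding sites, was 1.30-fold lower in R175Q cells. A_55_P2053933 (chr12:58641764-58641823, minus strand) read 1.97, 1.93, 1.95 and 1.94 in R175Q cells. In wild-type cells it read 2.31, 2.32, 2.19 and 2.49. The groups did not overlap, and the 4 R175Q arrays ran from 1.93 to 1.97, giving 1.95 ± 0.015 against 2.33 ± 0.12 (SD, n = 4 each). The difference was -0.38 ± 0.07 (SE), and -0.38, -0.31 and -0.55 within the 3 slides. It was smaller, and its SE larger, with normexp fitted to all spots (-0.27 ± 0.16) and with median centring (-0.26 ± 0.11).

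Of the 12 probes, 6 were above background on enough arrays to enter the fit, all of them on all 8, and these cover 5 of the 6 genes. Groups did not overlap for 3 of the 6 (Gpr30, the A_55_P1967885 probe of Nr3c1 and Foxa1), beside 23.0% of all 22849 probes. As the genes were chosen on this contrast, nothing is read from that count.

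**Figure D4:**
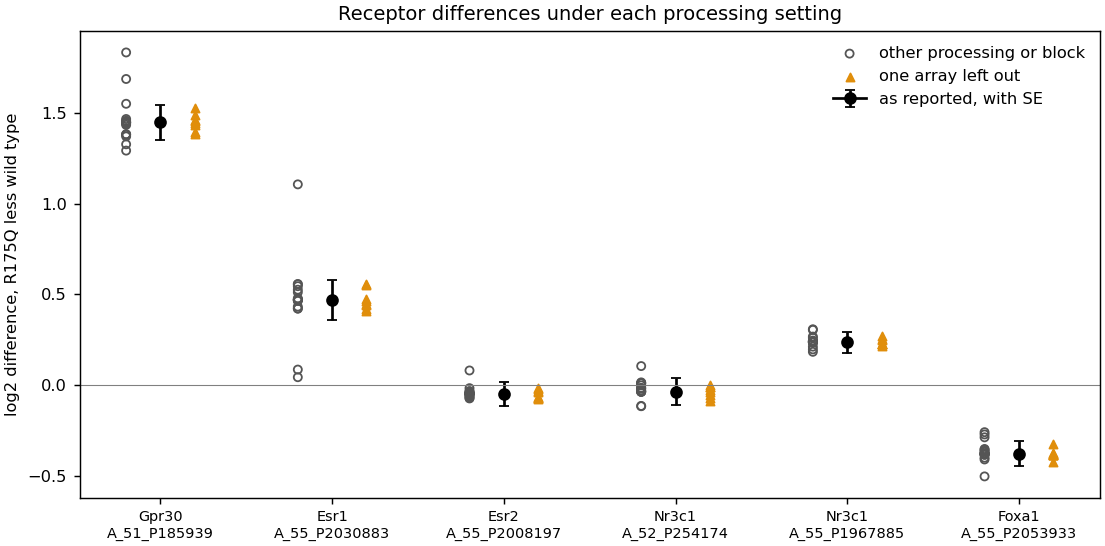
Difference between R175Q and wild-type cells in log2 ratio (vertical axis) for the 6 measured probes, as reported with its SE (black), under each other processing or block (open circles) and with 1 array left out (triangles). Gpr30 stays between 1.29 and 1.84, Esr1 runs from 0.04 to 1.11, Foxa1 stays between -0.50 and -0.26, and Esr2 and the A_52_P254174 probe of Nr3c1 lie on both sides of 0.

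Of 10 measured genes for other steroid receptors and steroid-binding proteins, 1 rose and 4 fell, with a median difference of -0.21 against -0.019 over all 17331 genes measured, of which 8.62% rose and 9.70% fell. Paqr5, a membrane progestin receptor, fell by 0.95 on the log2 scale (SE 0.093, adjusted p = 9.41e-05 by limma), and the related receptor gene Paqr8 fell by 0.56 (adjusted p = 0.0123 by limma). Pgrmc1, a membrane-associated progesterone-binding protein, fell by 0.21 and the estrogen-related receptor Esrra fell by 0.27, while the orphan nuclear receptor Nr2f2 rose by 0.21. Only Paqr5 of these 5 still passed with the slide as a block or with the close arrays averaged, and Paqr8 was -0.03 with normexp fitted to all spots. Nr3c2, the mineralocorticoid receptor, differed by -0.28 and did not pass (adjusted p = 0.0849 by limma). Esrrb, Esrrg and Shbg were not above background on enough arrays to be tested.

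Of 21 measured coregulators none rose and 2 fell (limma), beside 18.3% of all genes that passed in either direction, with a median of -0.012. At an unadjusted p under 0.05 there were 4, a count with no share over all genes beside it. Tbl1x, a corepressor exchange factor, fell by 0.38 (adjusted p = 0.00892 by limma). Safb, an estrogen receptor corepressor, fell by 0.17 (adjusted p = 0.0471 by limma). Ncoa1, the first steroid receptor coactivator, differed by 0.23 and the transcription factor gene Tcfap2a by 0.24, and neither passed (adjusted p = 0.0739 and 0.136 by limma). Among the 16 chaperones and cochaperones of steroid receptors, Dnaja1 rose by 0.39 (adjusted p = 0.00264 by limma) and Fkbp4, the immunophilin that helps hormone binding, fell by 0.24 (adjusted p = 0.0255 by limma). The cochaperone Stip1 (-0.15) and Hsp90aa1, the chaperone itself (-0.19), did not pass.

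Of 17 measured estrogen targets 4 rose and 1 fell, with a median of 0.14, beside 8.62% of all genes that rose and 9.70% that fell. Wisp2, an estrogen-induced secreted protein, rose by 1.09 ± 0.12 (SE, adjusted p = 0.000192 by limma), from -2.54 to -1.45. Stc2, a secreted glycoprotein, rose by 0.89, Tff1, the trefoil factor used as a reporter of estrogen action, by 0.79 and Xbp1 by 0.37, while the coregulator Cited1 fell by 0.37. None of the 17 passed with normexp fitted to all spots, where Wisp2 was 0.45 ± 0.18, Stc2 0.51 ± 0.17 and Tff1 0.44 ± 0.14, and the scanner's processed ratio gave 1.34 ± 0.15 for Tff1. Greb1, another common reporter, differed by 0.11 ± 0.08 and Areg, the main growth factor target in the mammary gland, by 0.034 ± 0.10, and neither passed. For the progesterone target list none of 9 measured genes passed the limma threshold in either direction, beside 18.3% of all genes. At an unadjusted p under 0.05 by limma there were 6. The share of all genes at that level is not given here, so nothing is read from that count. Klf4 had the largest difference there, 0.43 ± 0.15 (adjusted p = 0.0713 by limma). By unadjusted p it was followed by Stat5a (0.25), Tnfrsf11a (-0.23), Hes6 (0.16), Id4 (-0.22) and Wnt4 (-0.18).

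Glucocorticoid targets went both ways: of 20 measured genes 3 rose and 2 fell, with a median of 0.16. Among all genes 8.62% rose and 9.70% fell. Cebpd rose by 0.81, and the inhibitor of NF-kappaB Nfkbia and the lipase inhibitor Angptl4 rose by 0.53 each. Anxa1, the glucocorticoid-induced annexin, fell by 0.54 and the metallothionein Mt2 fell by 0.25. Tsc22d3, Per1 and Fkbp5, genes widely used as readouts of the receptor, differed by 0.24, -0.085 and 0.16 and did not pass.

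Genes of signalling from the membrane estrogen receptor also split. Of 15 measured genes 2 rose and 4 fell, with a median of -0.055, beside 8.62% of all genes that rose and 9.70% that fell. Mmp2, the metalloproteinase of the route from the receptor to EGF receptor ligands, rose by 1.81 ± 0.10 (SE, adjusted p = 3.87e-06 by limma), from -4.75 to -2.93 (1.11 with normexp fitted to all spots), and the adenylyl cyclase gene Adcy7 rose by 0.90 ± 0.081 (adjusted p = 5.93e-05 by limma). Ctgf, a described target of the receptor, fell by 0.85 (adjusted p = 0.000881 by limma). Egfr fell by 0.25, its ligand gene Hbegf by 0.41 and Prkaca, a catalytic subunit of protein kinase A, by 0.21. The immediate early genes Fos (0.14 ± 0.23) and Egr1 (0.13 ± 0.29) did not pass.

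Enzymes that make or inactivate steroids contributed 5 genes that rose and none that fell among 17 measured, beside 8.62% and 9.70% of all genes. The median was 0.058. By limma 7 had an unadjusted p under 0.05, again with no share over all genes to set beside that count. Hsd11b1, which regenerates active glucocorticoid, rose by 0.89 ± 0.10 (SE, adjusted p = 0.000224 by limma), from -0.48 to 0.42. Hsd17b11 rose by 0.45, Sts, the steroid sulfatase, by 0.42, the reductase gene Srd5a3 by 0.27 and Cyp1b1, which hydroxylates estradiol, by 0.24.

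Over the 8 lists together, 30 of 122 genes passed, 16 higher and 14 lower, which is 24.6%, against 18.3% of all genes, and the median was -0.014. With normexp fitted to all spots 11 of these 30 still passed, with the slide as a block 17, and with the close arrays averaged 14. Paqr5, Dnaja1, Nfkbia, Angptl4, Mmp2, Adcy7, Ctgf, Hsd11b1 and Hsd17b11 passed in all 3 of those settings, while Wisp2, Tff1, Stc2, Cebpd and Cited1 passed in both of the last but not with normexp fitted to all spots. None of the 30 list genes that passed changed sign with median centring or with scaling between arrays, but Paqr8 did with normexp fitted to all spots and the slide as a block (0.085).

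**Figure D5:**
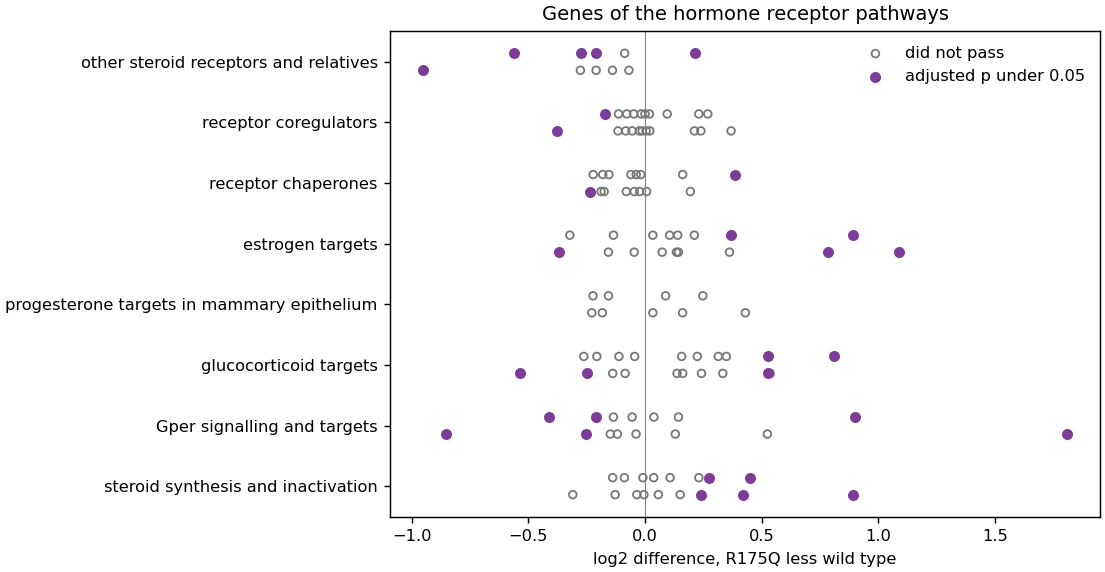
Difference between R175Q and wild-type cells in log2 ratio (horizontal axis) for each measured gene of the 8 receptor pathway lists, with filled points for adjusted p under 0.05 and open points for genes that did not pass. Mmp2 at 1.81 and Wisp2 at 1.09 lie farthest to the right, Paqr5 at -0.95 farthest to the left, and no progesterone target is filled.

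The genes whose pattern over the 8 arrays was most like that of Gpr30 were sought among 12905 genes. The Notch ligand gene Jag2 came first, with Pearson's r = 0.997 over the arrays and 0.959 after removing the group means, and it was 0.72 higher in R175Q cells. Ccdc3 (r = 0.996), Tmem173 (r = 0.995), the innate immune sensor now named Sting1, the phosphoinositide 3-kinase regulatory subunit Pik3r5 (r = 0.995) and the proteasome activator Psme1 (r = 0.995) followed. For Esr1 the closest were Orai3 and 4933436C20Rik (r = 0.980 and 0.979), for Esr2 Enho and Dnahc8 (r = 0.979 and 0.956), for the A_55_P1967885 probe of Nr3c1 Ifitm6 and Rhoq (r = 0.995 and 0.994), and for Foxa1 Prl2c5 and Ccdc56 (r = 0.992 and 0.987). These are descriptions of 8 arrays in 2 groups that share slides and a reference. In the wild-type group, replicate 3 stood apart from the other arrays for this Nr3c1 probe, Ifitm6 and Rhoq alike. The part of that array in their r values was not tested. Among the receptors themselves, Gpr30 and Esr1 had r = 0.886 over the arrays and 0.655 within groups, and Gpr30 and Foxa1 had r = -0.922 over the arrays and -0.124 within groups.

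Markers of mammary epithelial cell types were read as a description. A signal above background does not settle cell identity here, since markers of other cell types gave one too. Of 10 markers of hormone-sensing luminal cells 7 were above background on all 8 arrays (Cited1, Esr1, Foxa1, Gata3, Krt18, Krt8 and Ly6a) and Prlr on none. The sums of these markers overlapped, 353586 to 453645 units in R175Q cells and 420208 to 491634 in wild-type cells. Ly6a rose by 0.94 (adjusted p = 0.00055 by limma) and Krt8 fell by 0.21. Csn3, a milk protein gene and the only 1 of 8 luminal progenitor and alveolar markers above background on every array, fell by 1.58 (adjusted p = 0.000313 by limma). The summed level of that list was 591 to 792 intensity units in R175Q cells and 1186 to 2312 in wild-type cells. Of 8 basal and myoepithelial markers 4 were above background on all 8 arrays (Acta2, Krt14, Mme and Trp63) and Myh11 and Oxtr on none. Their sums overlapped, 4605 to 5900 units in R175Q and 4249 to 5379 in wild-type cells, and none of the 5 measured passed (limma; 0 at an unadjusted p under 0.05).

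Some markers of other cell types differed between the groups, beside 18.3% of all genes that passed in either direction. All 5 fibroblast and pericyte markers were above background, with summed levels of 1654 to 2083 units in R175Q cells and 861 to 971 in wild-type cells. Pdgfrb rose by 1.18, Dcn by 0.72 and Col3a1 by 0.39, while Pdgfra (0.24) and Col1a1 (0.078) did not pass. Endothelial markers summed to 613 to 676 units in R175Q cells and 429 to 569 in wild-type cells, with Cdh5 and Tek above background on no array; Vwf rose by 0.84, while Pecam1 (-0.21) and Kdr (-0.067) did not pass. Erythrocyte markers summed to 619 to 836 against 434 to 494 units, and adipocyte markers to 275 to 342 against 379 to 578, with Adipoq, Cfd, Lep and Plin1 above background on none. Macrophage markers (42756 to 53020 against 37828 to 51388) and lymphocyte markers (367 to 428 against 346 to 397) had sums that overlapped between the groups, although Mrc1 fell by 0.61 and Emr1 by 0.28 among the 7 macrophage markers. Their part in the differences of Gpr30, Esr1, Foxa1 and the genes of the lists was not tested.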

How the data were processed

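RNA of 4 R175Q and 4 wild-type samples was measured on 2-colour Agilent arrays. The authors' scanner files, made with Feature Extraction 9.5.3.1 per the file headers, give a mean and background intensity per spot and channel and the scanner's log10 ratio. The authors' deposited value table holds log2 values whose scale, centring and direction are not stated: its column medians were 0.052 to 0.062, and it correlated at 0.954 to 0.962 with the scanner's sample over reference ratio, so it was read as log2 of Cy3 over Cy5. It served as an alternative only.

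In R 4.3.3 with limma 3.58.1, local background was subtracted, normexp was applied with the negative control spots and an offset of 50, and loess was fitted within arrays. The negative controls were used because normexp fitted to all spots put the background below 0 on some arrays; that fit is an alternative. Spots flagged as outliers by the scanner were left out and spots of a probe averaged. Probes well above background in the sample channel on at least 4 of 8 arrays were kept, less 122 with no usable spot on some array. The 22849 probes were fitted with lmFit and eBayes, with Benjamini-Hochberg adjustment and a threshold of 0.05. Each gene of a list was read from its brightest kept probe. Named list genes were the 4 with the lowest unadjusted p of each list. The rest of those that passed were added after their values were seen, as were some common readouts and core genes. The number of arrays limits the precision. Members and lists were chosen with earlier results of these data known.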

Additional observations from a re-analysis of the deposited data

Results flagged for a closer look

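In groups of 4 arrays, 10 of 102 probe and group combinations had 1 array far from the other 3, by Dixon's gap test at a level that chance alone reaches in about 1 of 20 groups. Of these, 6 concern wild-type replicate 3, the array with the broad negative controls. On that array the A_55_P1967885 probe of Nr3c1 read -1.22, nearer to the R175Q values than the other wild-type arrays were. Also on it Ncoa1 read -0.22, Tcfap2a 0.85, Angptl4 -1.87, Ifitm6 -1.86 and Rhoq -0.88. Wild-type replicate 2 stood apart for Paqr5 (0.42) and Klf4 (2.39). R175Q replicate 3 stood apart for Stc2 (-1.31) and 4933436C20Rik (-0.12).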

How the results depend on the processing

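The number of probes that passed (1828 higher, 2222 lower) and of list genes (16 higher, 14 lower) moved with the processing. Normexp fitted to all spots gave 483 and 429 probes and 8 and 3 list genes, with 0.085 for Esr1, 0.20 for Nr3c1 A_55_P1967885 and -0.27 for Foxa1. Median centring gave 2791 and 813 probes and 4 lower list genes, with -0.26 for Foxa1 and a turned sign for Esr2 (0.080), Nr3c1 A_52_P254174 (0.10) and Enho (0.069). Scaling between arrays gave 1137 and 1265 probes and 7 lower list genes, and turned Nr3c1 A_52_P254174 (0.0100), Enho (0.079) and Dnahc8 (0.056). The Cy3 channel alone gave 0.18 for Nr3c1 A_55_P1967885 and 0.023 for Enho, and the deposited values gave 0.011 for Nr3c1 A_52_P254174. Averaging the close arrays gave 990 and 1003 probes and 3 lower list genes, with 0.42 for Esr1 and 0.24 for Nr3c1 A_55_P1967885. With the slide as a block 6 list genes fell, Esr1 was 0.42 and Nr3c1 A_52_P254174 0.0096. With the scan day as a block 6 list genes fell, Esr1 was 0.43 and Nr3c1 A_52_P254174 0.014. Normexp fitted to all spots together with the slide block left 0 probes higher and 1 lower (limma) and 0 list genes either way, with 1.29 for Gpr30, 0.043 for Esr1, 0.21 for Nr3c1 A_55_P1967885, -0.29 for Foxa1 and 0.085 for Paqr8, a turned sign. Leaving out 1 array at a time gave 1303 to 2505 probes higher and 1461 to 2646 lower, 12 to 24 list genes higher and 5 to 15 lower, 0.22 to 0.27 for Nr3c1 A_55_P1967885 and -0.086 to 0.0014 for Nr3c1 A_52_P254174. The highest counts came without wild-type replicate 3. The cause of these changes was not tested.

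The labels number replicates 1 to 4 in both groups. Deviations of same-numbered arrays from their group means correlated at 0.33, 0.013, 0.47 and 0.051, and not every R175Q array was closest to its own number, so the numbers were not taken as pairs. With the replicate number as a block 2120 probes rose and 2520 fell, and Gpr30 was 1.45. Of 155 values for the 6 measured receptor and Foxa1 probes over all settings, 7 turned sign, all for Esr2 or Nr3c1 A_52_P254174. The small RNA input, the number of arrays and, for Pgr and most Esr1 probes, signal near background limit what can be seen.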
